A study of Mus musculus with 12 samples.

Results

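The CXC chemokines are small proteins, named for the spacing of a pair of cysteines near their start, that draw leukocytes along a gradient. Cxcl1, Cxcl2 and Cxcl3 act on the receptor Cxcr2 and are known chiefly as neutrophil attractants, whose genes are classic NF-kB targets in macrophages exposed to bacterial products. Cxcl9, Cxcl10 and Cxcl11 are interferon-inducible ligands of Cxcr3 on activated T cells and natural killer cells, and Cxcl16 is made as a membrane-anchored protein that binds Cxcr6. All 7 of these genes, chosen by symbol, were found among the 53801 gene records of the RNA-seq table, and 5 of them passed the filter for testing.

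The cells were RAW264.7, a transformed mouse macrophage-like line used at passages 3 to 5. In the 4 groups, Synbindin siRNA with 100 ng/ml lipopolysaccharide (LPS) for 4 h stood against control siRNA with the same LPS, and Synbindin siRNA without LPS (0 h) against control siRNA without LPS. Synbindin is the protein encoded by Trappc4, a subunit of the TRAPP complexes of membrane traffic, and its siRNA cells are called silenced here. Each group held 3 libraries, 12 in all. Every culture was given an siRNA, and no untransfected culture was included. The labels do not tie replicates to separate transfections, and p-values therefore measure only the spread between these libraries, which may be technical.

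Levels are FPKM, fragment numbers per kilobase of transcript scaled for library size, and each library had 11672 to 12351 genes at 1 FPKM or more. Trappc4 was 5.89 ± 1.43 FPKM in silenced cells and 13.2 ± 0.79 in control cells without LPS (SD, n = 3 each), or 44.5% of control, and 7.28 ± 1.26 in silenced cells and 13.0 ± 3.22 in control cells after LPS, or 56.1%. The groups did not overlap at either time, and the 2-sided exact permutation p was 0.1, the smallest that 3 against 3 libraries allow. How many of all tested genes have groups that do not overlap was not counted. Lack of overlap is therefore given as description, here and for the genes below. In limma, the adjusted p was 0.0558 without LPS and 0.120 after LPS. Trappc4 shares exon sequence with Rps25 on the opposite strand (103 to 180 FPKM), and which strand setting was used for counting is not given in the sources used here. Among 8 macrophage markers, 7 reached 1 FPKM, and Mertk did not, whereas 23 markers of 6 other cell types stayed at or below 0.525 FPKM in every library and 13 of them were listed at 0 throughout.

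On the mouse build GRCm38, Cxcl3 (chr5:90786103-90789600), Cxcl1 (chr5:90891241-90893115) and Cxcl2 (chr5:90903871-90905938) lay in this order on the plus strand of chromosome 5. They formed a cluster in which Cxcl3 was farther from Cxcl1 than Cxcl2 was. Cxcl9 (chr5:92321347-92328079), Cxcl10 (chr5:92346638-92348889) and Cxcl11 (chr5:92359544-92365485) formed a second cluster on the minus strand, and Cxcl16 (chr11:70453983-70459984, minus strand) stood alone. All are annotated as protein coding in GENCODE M21 except Cxcl11, which is listed as a polymorphic pseudogene.

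The promoter windows of both clusters are shown because the genes of a cluster differed so widely in level. The windows are RefSeq sequence on GRCm38.p6, 200 bases each, from 230 to 31 bases upstream of the RefSeq start, written 5′ to 3′ on the gene's own strand. Entries matched 5 of the 7 genes, all but Cxcl11 and Cxcl16. The positions are Cxcl2 at chr5:90903669-90903868 (plus), Cxcl3 at chr5:90785871-90786070 (plus), Cxcl1 at chr5:90891015-90891214 (plus), Cxcl10 at chr5:92348920-92349119 (minus) and Cxcl9 at chr5:92328110-92328309 (minus). Capitals mark matches to an NF-kB consensus or to a pair of GAAA repeats separated by 2 bases, both searched on both strands.
Cxcl2: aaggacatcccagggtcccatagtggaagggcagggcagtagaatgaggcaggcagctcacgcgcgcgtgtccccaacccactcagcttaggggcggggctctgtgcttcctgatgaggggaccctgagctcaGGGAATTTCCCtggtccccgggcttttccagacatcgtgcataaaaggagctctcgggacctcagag
Cxcl3: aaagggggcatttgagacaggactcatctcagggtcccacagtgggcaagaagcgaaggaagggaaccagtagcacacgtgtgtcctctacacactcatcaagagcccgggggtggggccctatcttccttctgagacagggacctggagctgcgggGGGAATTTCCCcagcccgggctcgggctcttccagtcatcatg
Cxcl1: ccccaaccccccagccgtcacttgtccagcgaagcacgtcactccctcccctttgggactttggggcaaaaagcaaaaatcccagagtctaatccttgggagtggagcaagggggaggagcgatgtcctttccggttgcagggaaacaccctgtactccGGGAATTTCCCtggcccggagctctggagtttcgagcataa
Cxcl10: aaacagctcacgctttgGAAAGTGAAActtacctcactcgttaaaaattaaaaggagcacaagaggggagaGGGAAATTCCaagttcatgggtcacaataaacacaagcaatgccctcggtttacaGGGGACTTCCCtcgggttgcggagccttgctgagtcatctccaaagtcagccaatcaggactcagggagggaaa
Cxcl9: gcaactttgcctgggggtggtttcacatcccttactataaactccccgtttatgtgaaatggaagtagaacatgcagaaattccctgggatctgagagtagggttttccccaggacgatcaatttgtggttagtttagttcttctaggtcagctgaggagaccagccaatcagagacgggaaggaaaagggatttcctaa
The longest run of letters common to the Cxcl2, Cxcl3 and Cxcl1 windows was GGGAATTTCCC, which started at position -97 in Cxcl2, -73 in Cxcl3 and -71 in Cxcl1 relative to the RefSeq start. It holds an NF-kB consensus match on each strand, and these overlap. Since the letters were read from the 3 promoters themselves, their rarity is only a description: 11 of 32851 promoter windows of the same length held them (0.0335%), whereas 1919 (5.84%) held any NF-kB consensus match. Cxcl10 held GAAAGTGAAA, a pair of GAAA repeats of the kind bound by interferon regulatory factors, from position -213, and such a pair was present in 767 windows (2.33%). It also held the NF-kB consensus matches GGGAAATTCC from -159 and GGGGACTTCC from -104, and the one from -104 was overlapped by further matches on both strands. No match to these motifs was found in the Cxcl9 window, which says only that those letters are not there.

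Among these 7 genes, Cxcl16 held most of the summed level without LPS, and Cxcl2 and Cxcl10 held most of it after LPS. Cxcl14, a CXC ligand outside these 7, averaged more than Cxcl16 without LPS. Cxcl14 was at 15.0 FPKM in silenced and 14.7 in control cells, against 11.8 and 9.29 for Cxcl16. The summed level of the 7 genes was 13.7 ± 1.47 FPKM in silenced cells and 11.7 ± 0.51 in control cells without LPS (SD, n = 3 each). After LPS it was 734 ± 9.85 FPKM in silenced cells and 417 ± 34.5 in control cells, and the 2 groups did not overlap. Cxcl16 made up 86.2% ± 2.61 of the sum in silenced cells and 79.3% ± 9.94 in control cells without LPS. With LPS the Cxcl16 share was 7.46% ± 0.54 in silenced cells and 13.0% ± 0.53 in control cells. Cxcl2 then held 67.4% ± 1.25 of the sum in silenced cells and 56.6% ± 4.97 in control cells, and Cxcl10 held 24.4% ± 1.80 in silenced cells and 29.5% ± 5.48 in control cells. The share of Cxcl2 was thus higher, and that of Cxcl16 lower, in all 3 silenced than in all 3 control libraries after LPS, while the Cxcl10 shares overlapped.

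**Figure D1:**
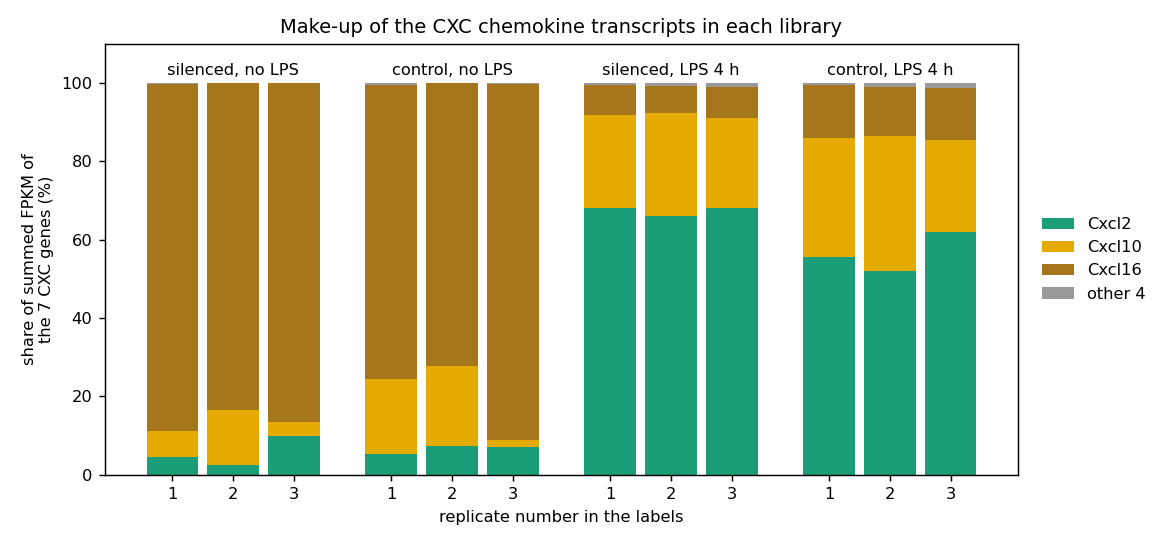
Share of the summed FPKM of the 7 CXC genes (vertical axis, percent) held by Cxcl2, Cxcl10, Cxcl16 and the other 4 genes in each library (horizontal axis, 3 replicates of each group). Cxcl16 holds 72.3% to 90.7% of the bar in every library without LPS, and Cxcl2 holds 66.0% to 68.2% in silenced and 52.2% to 62.0% in control libraries with LPS.

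The order of levels after LPS was the same in silenced and control cells: Cxcl2, Cxcl10, Cxcl16, Cxcl11, Cxcl3, then Cxcl1 and Cxcl9. Ranges over the 3 libraries of a group did not overlap between neighbours in that order, except for Cxcl1 and Cxcl9, both listed at 0 in some libraries. Without LPS, Cxcl16 stood above all others of these genes, and Cxcl10 and Cxcl2 overlapped. Cxcl11 was lower than both, and Cxcl1, Cxcl3 and Cxcl9 were listed at 0 in all 6 libraries.

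**Figure D2:**
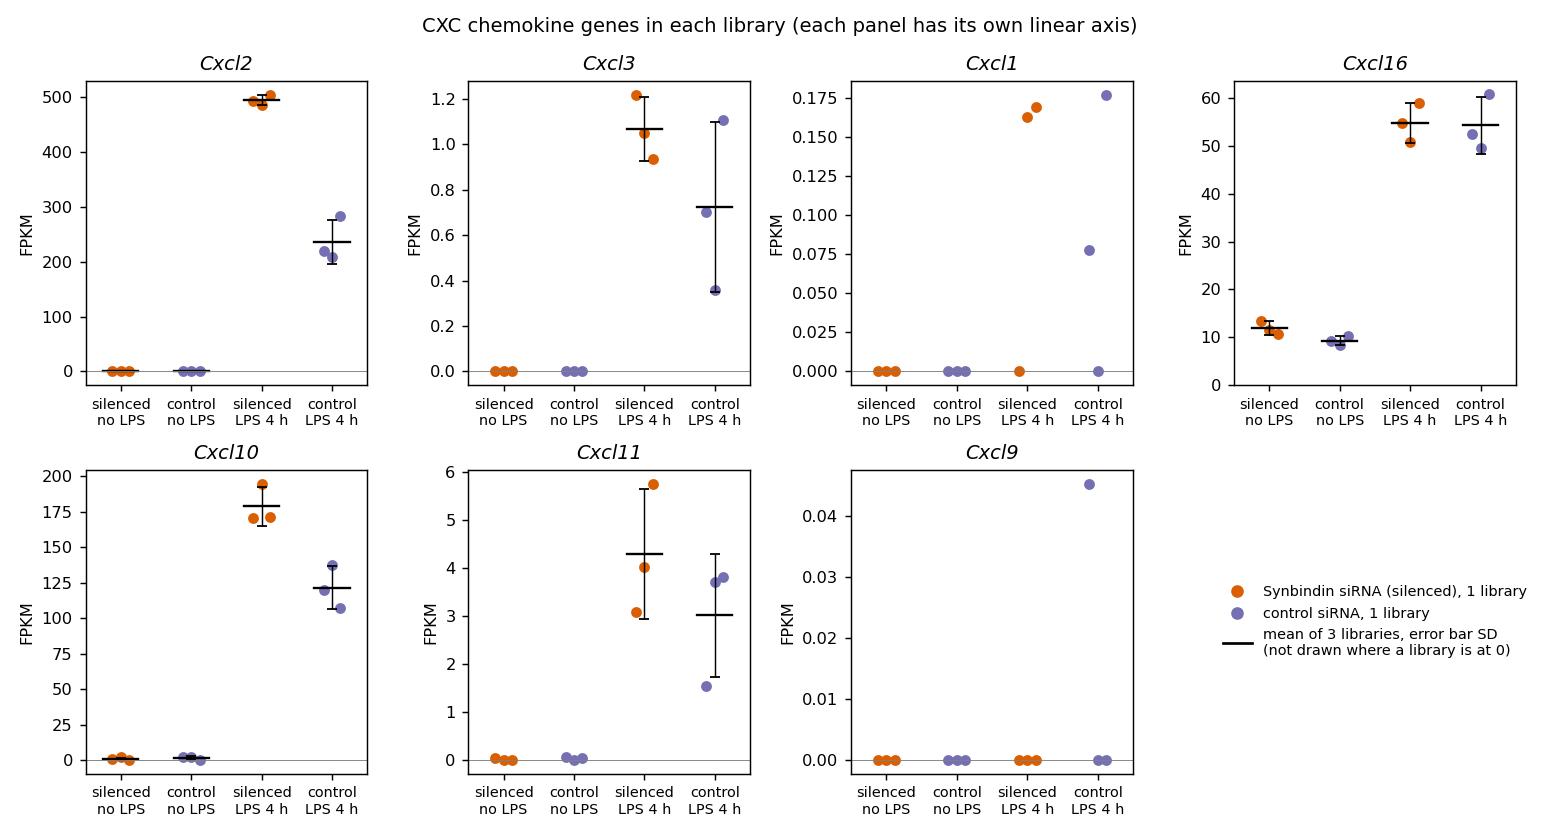
FPKM of each of the 7 genes in each library (linear axes that differ between panels), with the mean and SD of 3 libraries where none is at 0, silenced left of control at each time. After LPS the silenced libraries lie above the control libraries without overlap for Cxcl2 (487 to 505 against 208 to 283 FPKM) and Cxcl10 (171 to 195 against 108 to 137 FPKM), whereas Cxcl16 overlaps.

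Of the Cxcr2 ligands, Cxcl2 was the only one at a high level, and after LPS its mean level in silenced cells was 2.09 times that in control cells. Without LPS, Cxcl2 was 0.679, 0.349 and 1.211 FPKM in silenced libraries and 0.657, 0.843 and 0.793 FPKM in control libraries. The silenced libraries lay on both sides of the control libraries. After LPS it was 493.4, 486.6 and 504.8 FPKM in silenced libraries, against 219.9, 208.0 and 282.9 FPKM in control libraries. Every silenced library was above every control library, and the silenced libraries were close to each other. How common such a separation is among all tested genes was not counted.

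Silencing was tested at each time with limma on log2(FPKM + 1) over all 13078 genes that passed the filter, with p-values adjusted by Benjamini and Hochberg's method and called under 0.05. After LPS, Cxcl2 rose in silenced cells by 1.07 ± 0.16 (log2 fold change ± SE, 95% interval 0.72 to 1.43, adjusted p = 0.0214). No other of the 5 tested CXC genes was called in this comparison, in which 0.719% of all tested genes were called in either direction and 0.314% were called higher. By log2 fold change it ranked 29th among the 13078 genes. Without LPS the difference was -0.04 ± 0.16 (adjusted p = 0.946), none of the 5 tested CXC genes was called, and 0.214% of all tested genes were. Cxcl3, listed at 0 in every untreated library, could not be called there, and Cxcl11 was near 0 in those libraries. The call of Cxcl2 after LPS was lost with a pseudocount of 0.1 (1.08, adjusted p = 0.135). With only the 6 LPS libraries in the fit it was also lost (1.07, adjusted p = 0.0563), and 0 of the 13078 genes were called there. It was lost as well in 5 of 12 fits that each left out 1 library. Those 5 were the fits without silenced LPS replicate 1 (adjusted p = 0.0739), 2 (0.0998) or 3 (0.0551) and without control LPS replicate 1 (0.0982) or 2 (0.0957), with log2 fold changes of 0.99 to 1.08.

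Several measured quantities moved with Cxcl2 between silenced and control cells after LPS, and their part in the result was not tested. The summed FPKM of 8 macrophage markers was 1582 to 2082 in silenced and 1212 to 1423 in control libraries after LPS, and 1909 to 2304 in silenced and 1379 to 1524 in control libraries without LPS, where Cxcl2 overlapped between the groups. Lyz2, the macrophage lysozyme, carried that difference: without it the sum over the other 7 markers was 748 to 841 FPKM in silenced and 768 to 936 in control libraries after LPS, and the groups overlapped. Lyz2 was called higher by 1.22 after LPS (adjusted p = 0.0121) and by 1.11 without LPS (adjusted p = 0.0283), and Fcgr1, an IgG receptor, by 0.78 after LPS (adjusted p = 0.0417). Cd68 (-0.21, adjusted p = 0.399), the growth factor receptor Csf1r (-0.22, adjusted p = 0.604) and the transcription factor Spi1 (-0.03, adjusted p = 0.898) had negative differences after LPS that did not pass. Adgre1 (mean 14.1 FPKM in silenced against 11.4 in control cells) and both records of Itgam (15.8 against 12.2 and 32.3 against 21.6) were higher in silenced cells after LPS but not called. Of the 8 marker records tested, 5 had a positive difference after LPS, with a median of 0.32. The calls after LPS ended with only the groups compared, for Lyz2 (adjusted p = 0.0780) and for Fcgr1 (adjusted p = 0.0563). That for Fcgr1 also ended with no filter, quantile normalization and no intensity trend, and was made under 6 of 10 other settings. Of 12 fits that left out 1 library Lyz2 was called in 9 (not without silenced LPS replicate 1 or 2 or control LPS replicate 2) and Fcgr1 in 3. Without LPS, Lyz2 was called in 5 of those 12 fits and under 6 of 10 other settings. A rough depth estimate, from the commonest low values, was 13.5 to 17.8 M (mega) fragments in silenced and 10.2 to 12.9 M in control LPS libraries. In bulk RNA, more cells that make a transcript and more transcript per cell cannot be told apart.

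Cxcl3 and Cxcl1 stayed low beside Cxcl2. In the 6 libraries without LPS, Cxcl3 was listed at 0. After LPS it was 1.219, 1.051 and 0.935 FPKM in silenced libraries and 0.704, 0.358 and 1.106 FPKM in control libraries. The groups overlapped, and the difference of 0.28 ± 0.18 did not pass the test (adjusted p = 0.549). Cxcl1 was also listed at 0 without LPS, and after LPS it was 0, 0.163 and 0.169 FPKM in silenced libraries and 0.0777, 0 and 0.177 FPKM in control libraries. It reached 1 FPKM nowhere and was not tested.

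Cxcl2 and Cxcl3 are close copies of each other. Over an alignment of 300 coding bases they were 89.7% identical, and their transcripts share an unbroken identical stretch of 110 bases. Cxcl1 was 76.0% identical to Cxcl2 and 72.7% to Cxcl3, with a longest shared stretch of 23 bases in each case. How reads with several matches were counted is not given in the sources used here, so the division of reads between Cxcl2 and Cxcl3 is uncertain. Cxcl3 amounted to 0.247%, 0.216% and 0.185% of Cxcl2 in silenced LPS libraries and 0.320%, 0.172% and 0.391% in control LPS libraries.

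Of the Cxcr3 ligands, Cxcl10 was the abundant one and Cxcl9 was all but undetected. Without LPS, Cxcl10 was 1.005, 1.935 and 0.425 FPKM in silenced libraries and 2.363, 2.365 and 0.220 FPKM in control libraries. Replicate 3 was the lowest of its group in both. After LPS, Cxcl10 was 170.7, 194.9 and 171.3 FPKM in silenced libraries, against 120.1, 137.3 and 107.6 FPKM in control libraries. Every silenced LPS library exceeded every control LPS library, and the ratio of mean FPKM was 1.47. How many of all tested genes separate in this way was not counted. In this comparison 1697 of 13078 tested genes had an unadjusted p under 0.05 in limma.

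That Cxcl10 difference did not pass the test (0.56 ± 0.35, 95% interval -0.22 to 1.33, adjusted p = 0.556), and a p that misses the threshold does not show equal levels. The SE comes from a spread shared by all 4 groups, and for Cxcl10 the untreated libraries spread more than the LPS libraries on the log2 scale. With only the 6 LPS libraries fitted, the SE was 0.11 and the adjusted p was 0.150. Without both untreated replicate 3 libraries, an alternative chosen after seeing the data, the SE was 0.14 and the adjusted p was 0.136. Without LPS the difference was -0.24 ± 0.35 (adjusted p = 0.837), and it was -0.47 ± 0.18 (adjusted p = 0.344) without both replicate 3 libraries.

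The low untreated replicate 3 libraries were also low in other interferon-stimulated genes. Over 12 such genes, the median log2(FPKM + 1) was 1.82, 1.80 and 0.997 in silenced libraries 1, 2 and 3 without LPS, and 2.91, 2.40 and 1.10 in control libraries 1, 2 and 3. Replicate 3 held the lowest value of its group for 11 of 12 genes in silenced cells and for 10 of 12 in control cells. After LPS the median was 7.19 to 7.50 in silenced libraries and 7.14 to 7.40 in control libraries. Whether this spread between untreated libraries bears on Cxcl10 was not tested.

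**Figure D3:**
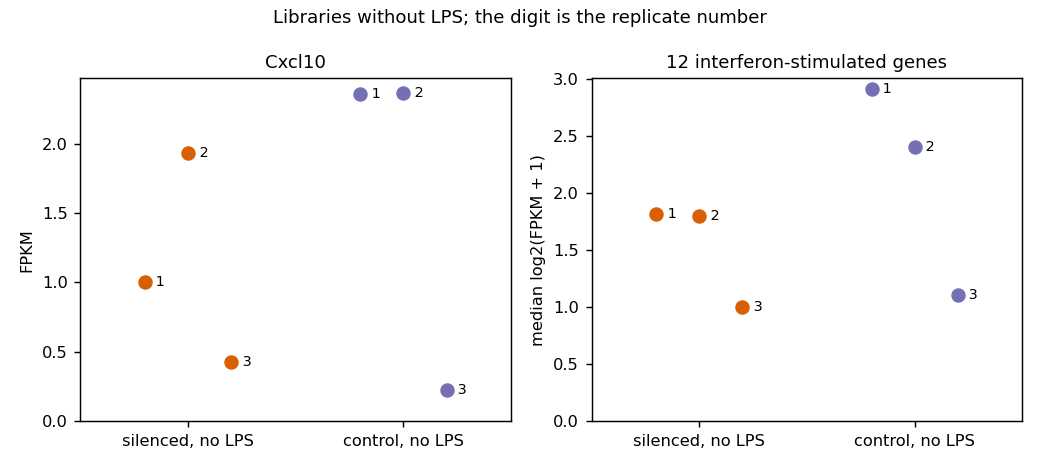
Cxcl10 (left, FPKM) and the median of 12 interferon-stimulated genes (right, log2(FPKM + 1)) in the 6 libraries without LPS, silenced left of control, each point 1 library with its replicate number. Replicate 3 is the lowest point of its group in both panels, at 0.425 FPKM in silenced and 0.220 FPKM in control cells for Cxcl10.

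Cxcl11 was 0.0335 FPKM in silenced library 1 and listed at 0 in silenced libraries 2 and 3 without LPS, and 0.0661, 0 and 0.0390 FPKM in control libraries. After LPS it was 3.092, 4.027 and 5.762 FPKM in silenced libraries and 1.540, 3.712 and 3.809 FPKM in control libraries. The LPS groups overlapped, and the difference of 0.42 ± 0.25 did not pass the test (adjusted p = 0.509). Cxcl9 was listed at 0 in 11 libraries and at 0.0453 FPKM in control LPS replicate 1, so it was not tested. Cxcl10 shares exon sequence with Art3 on the opposite strand, which reached at most 0.216 FPKM, and Cxcl11 with the pseudogene Gm2673, at most 0.0372 FPKM. The 3 coding sequences were 47.2% to 56.8% identical to each other, with no shared transcript stretch above 12 bases.

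Cxcl16, the membrane-anchored ligand, was present in every library, and no difference between silenced and control cells passed the test. Without LPS it was 13.4, 11.5 and 10.6 FPKM in silenced libraries and 9.22, 8.39 and 10.3 FPKM in control libraries. The silenced libraries lay above the control libraries by a narrow margin. The difference of 0.32 ± 0.11 had a 95% interval of 0.07 to 0.56 and an unadjusted p of 0.0160, but did not pass after adjustment (limma, adjusted p = 0.309). In that comparison 1565 of all 13078 tested genes had an unadjusted p under 0.05. After LPS, Cxcl16 was 54.7, 50.7 and 58.9 FPKM in silenced libraries and 52.5, 49.5 and 60.9 FPKM in control libraries. Those groups overlapped, the difference was 0.02 ± 0.11 (adjusted p = 0.978), and its 95% interval ran from -0.23 to 0.26. Cxcl16 shares exon sequence with Zmynd15 on the opposite strand (0.279 to 4.63 FPKM).

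**Figure D4:**
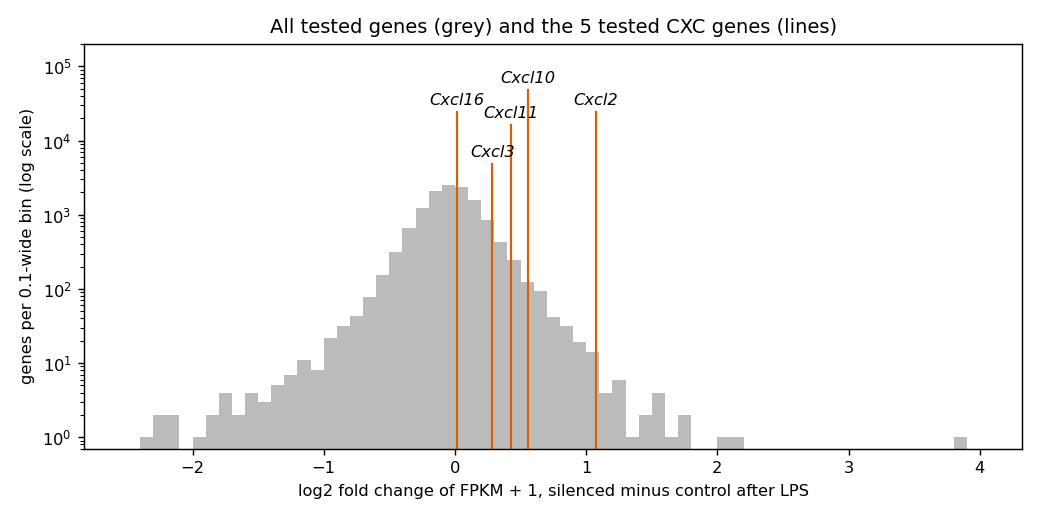
Log2 fold change of FPKM + 1 in silenced against control cells after LPS (horizontal axis) for all 13078 tested genes (grey bars, genes per bin on a log scale) and the 5 tested CXC genes (lines). Cxcl2 lies at 1.07, in the upper tail, and Cxcl16 lies at 0.02, near the median of all genes at -0.03.

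LPS was compared with no LPS within each kind of siRNA cell. Cxcl2, Cxcl3 and Cxcl11 reached 1 FPKM in at most 1 of the 6 untreated libraries and passed the filter only through the LPS libraries, so their LPS differences follow in part from the filter and are given as description. Cxcl10 reached 1 FPKM in 4 and Cxcl16 in all 6 untreated libraries. These comparisons each share a group with those of silenced against control cells. In all, 48.5% of tested genes were called in silenced cells (13.0% higher) and 48.2% in control cells (15.3% higher). The median of all tested genes was -0.21 in silenced and -0.17 in control cells, and median-ratio scaling moved it to 0.01 in each. With that scaling, 51.1% of the calls in silenced cells and 51.8% in control cells were higher, against 26.8% and 31.7% with the deposited values. With quantile normalization these shares were 40.2% in silenced and 42.6% in control cells.

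The LPS difference of Cxcl2 was 8.18 in silenced cells, with a ratio of mean FPKM of 663, and 7.06 in control cells, with a ratio of 310. Cxcl10 rose by 6.47 ± 0.35 in silenced cells (adjusted p = 8.74e-08) and by 5.67 ± 0.35 in control cells (adjusted p = 2.88e-07), and by log2 fold change ranked 10th of 13078 genes in silenced and 11th in control cells. Cxcl16, already present without LPS, rose 4.63-fold by its mean FPKM in silenced cells (2.12 ± 0.11, adjusted p = 6.73e-08) and 5.84-fold in control cells (2.42 ± 0.11, adjusted p = 2.82e-08). The LPS difference of Cxcl11 was 2.36 in silenced and 1.90 in control cells, and with a pseudocount of 0.1 in place of 1 it was 5.27 in silenced and 4.46 in control cells. No fold is given for Cxcl3, listed at 0 without LPS.

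Whether the LPS response itself differed between silenced and control cells was tested as an interaction. The estimate was 1.12 ± 0.23 for Cxcl2 (unadjusted p = 0.00044, adjusted p = 0.140), 0.80 ± 0.50 for Cxcl10 (adjusted p = 0.583), 0.46 ± 0.35 for Cxcl11 (adjusted p = 0.651) and 0.28 ± 0.25 for Cxcl3 (adjusted p = 0.698). Cxcl16 had the only negative one, -0.30 ± 0.16 (adjusted p = 0.505). With Cxcl3 listed at 0 in every untreated library, its interaction equals its difference after LPS and is not a separate test. Cxcl2 and Cxcl11 passed the filter only through the LPS libraries and were low without LPS. Their interactions therefore rest largely on the LPS libraries too. None of the 5 passed in limma, and 0.0612% of all tested genes were called. An unadjusted p under 0.05 was reached by 1 of the 5 and by 1480 of all 13078 tested genes. The call for Cxcl2 after LPS and its absence without LPS therefore do not by themselves show a different LPS response.

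**Figure D5:**
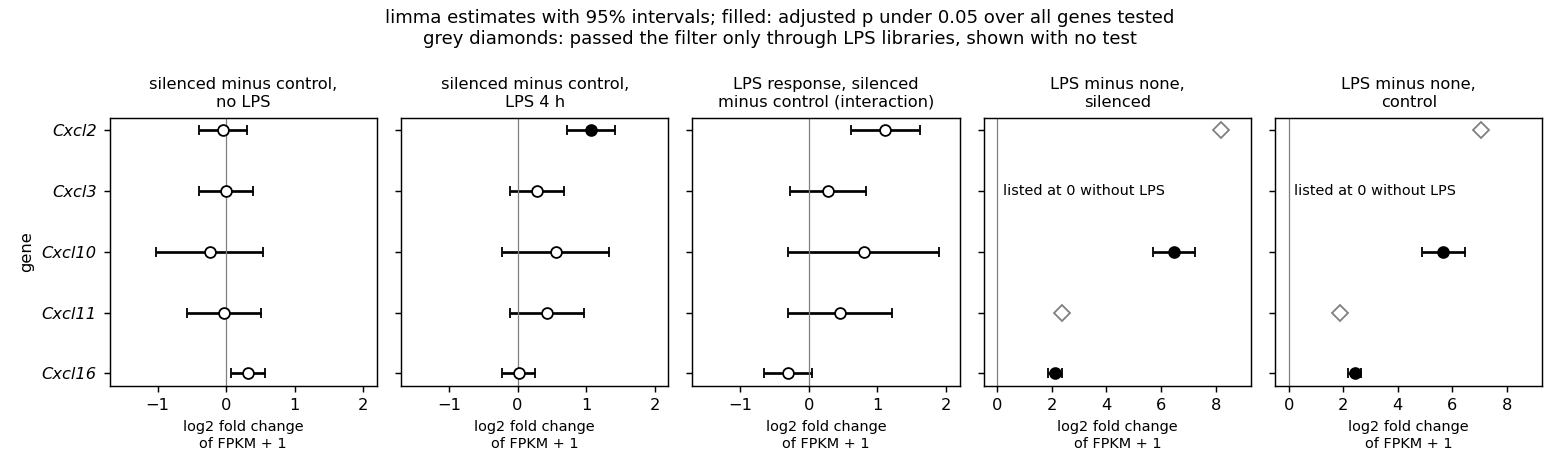
Log2 fold changes of FPKM + 1 (horizontal axes) of the 5 tested CXC genes in the 5 comparisons, as limma estimates with 95% intervals; filled points had an adjusted p under 0.05 over all tested genes. Cxcl2 is the only filled point in the panels that set silenced against control cells (1.07 after LPS), and Cxcl10 and Cxcl16 are filled in both LPS panels. Grey diamonds there give Cxcl2 and Cxcl11 with no test, since they passed the filter only through LPS libraries, and Cxcl3 is left out because it was listed at 0 without LPS. For the same reason Cxcl3 could not be called in the panel without LPS, and its interaction repeats its difference after LPS.

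The receptors of these ligands were few in this line, and none was called between silenced and control cells. Of 8 receptor genes, 3 passed the filter. Cxcr3, the receptor for Cxcl9, Cxcl10 and Cxcl11, differed by -0.19 without LPS (adjusted p = 0.654) and by -0.17 after LPS (adjusted p = 0.689). The B-cell follicle homing receptor Cxcr5 differed by 0.29 (adjusted p = 0.592) without LPS and by 0.42 (adjusted p = 0.412) after LPS. Cxcr4, the receptor for Cxcl12, was lower with LPS by 2.39 on the log2 scale in silenced cells and by 2.18 in control cells. With LPS it reached at most 0.185 FPKM, so it passed the filter only through the untreated libraries. The Cxcr4 difference thus follows in part from the filter and is given as description. Cxcr2 reached at most 0.204 FPKM, Cxcr6 ranged from 0.136 to 1.506 FPKM, and Cxcr1, Ackr1 and Ackr3 were listed at 0 in every library.

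Of 8 further CXC ligand genes, Cxcl14, a constitutive chemokine of many tissues, was the only one to pass the filter. It averaged 4.97 FPKM after LPS and 15.0 without LPS in silenced cells, and 4.31 after LPS and 14.7 without LPS in control cells. It fell with LPS by 1.42 in silenced cells (adjusted p = 3.25e-06) and by 1.57 in control cells (adjusted p = 1.64e-06). Among proteases that act on CXC chemokines, Adam10, which sheds Cxcl16 from the cell surface, fell with LPS by 1.28 in silenced cells (adjusted p = 0.000336) and by 1.39 in control cells (adjusted p = 0.000200). Adam17, a related sheddase, rose with LPS by 0.42 in silenced cells (adjusted p = 0.000777) and by 0.39 in control cells (adjusted p = 0.00130), and between silenced and control cells it differed by 0.32 without LPS (adjusted p = 0.136) and by 0.35 after LPS (adjusted p = 0.0717). Dpp4, which trims Cxcl10, was listed at 0 throughout.

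Genes that act upstream of these chemokines were counted from lists. Of 14 NF-kB subunits and regulators, all tested, 10 rose and 1 fell with LPS in silenced cells, and the same numbers did in control cells. Over all tested genes, 48.5% were called in either direction in silenced cells and 48.2% in control cells. The shares called higher were 13.0% in silenced and 15.3% in control cells. Between silenced and control cells 1 was called, after LPS: Nfkbiz, an inducible nuclear cofactor of NF-kB, was 38.0, 35.5 and 35.4 FPKM in silenced libraries and 21.2, 20.5 and 23.7 FPKM in control libraries, with a difference of 0.71 ± 0.14 (adjusted p = 0.0477). That call lay close to the threshold: it ended with only the groups compared (adjusted p = 0.0563) and with a pseudocount of 0.1 (adjusted p = 0.101), it was made under 4 of 10 other settings, and it was made in 2 of 12 fits that left out 1 library, with each LPS library among those whose omission ended it (0.67 to 0.77 over all of these, adjusted p up to 0.184). The list's median difference was 0.05 after LPS, beside -0.03 over all tested genes. Among 10 mRNA stability factors 1 was called after LPS: Zc3h12a, an RNase that degrades inflammatory transcripts, was 43.5, 40.6 and 38.7 FPKM in silenced libraries and 26.2, 24.7 and 24.5 FPKM in control libraries. It rose by 0.68 ± 0.08 (adjusted p = 0.00724), a call made in all 12 fits that left out 1 library. With only the groups compared, where 0 genes were called after LPS, Zc3h12a was not called (adjusted p = 0.0563). Its interaction was 0.87 ± 0.12 (adjusted p = 0.0271), but this call ended in 10 of the 12 fits that left out 1 library, all but those without control replicate 1 before LPS or control replicate 3 after LPS (adjusted p up to 0.132). The median difference of this list after LPS was 0.11. Over all tested genes, 0.719% were called between silenced and control cells after LPS, and 0.314% were called higher. In the interaction 0.0612% were called.

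Of 15 interferon signalling genes none was called between silenced and control cells by limma, and the median difference was -0.05 without LPS and 0.06 after LPS. After LPS the smallest p-values belonged to Irf8, an interferon regulatory factor (0.44, adjusted p = 0.0746), and to Ifnb1, interferon beta itself (0.69, adjusted p = 0.106). Ifnb1 was listed at 0 without LPS and was 3.040, 3.355 and 4.407 FPKM in silenced and 2.099, 2.286 and 1.205 FPKM in control LPS libraries. Of 12 interferon-stimulated genes none was called between silenced and control cells, with a median difference of 0.23 after LPS and 9 of 12 above 0, and of -0.50 without LPS and 2 of 12 above 0. Over all tested genes the median was -0.03 after LPS and 0.01 without LPS. With LPS all 12 rose, by a median of 5.24 in silenced cells and 4.76 in control cells, beside the 13.0% and 15.3% of all tested genes called higher. Untreated levels were at most 0.308 FPKM for Gbp2, 0.0756 for Gbp5 and 0.700 for Mx1. These and Mx2 passed the filter only through the LPS libraries. The count of 12 therefore follows in part from the filter and is given as description.

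For likeness of pattern, each tested gene was centred on its mean log2(FPKM + 1) over the 12 libraries and set against each CXC gene by the root mean square (RMS) difference. Closest to Cxcl2 were Lif, Ccl22 and Ccl5 (RMS difference 0.44, 0.45 and 0.57 on the log2 scale), of which Ccl22 and Ccl5 are CC chemokines. Closest to Cxcl10 were the interferon-stimulated genes Ifit3 (0.38) and Gbp2b (0.41) and the cytokine gene Il27 (0.44). Cxcl11 was closest to Phf11c (0.17), Il1bos (0.23) and Gm16094 (0.23). Il1bos is annotated as antisense, and with the strand setting unknown its reads cannot be told apart from those of its partner gene. Cxcl16 was closest to Gch1, Nfkbib and Nfkb1, each at 0.16, and Cxcl3 to Pik3r6, Akap13 and Atxn1, each at 0.11. Genes with a small LPS change have small differences by this measure, so distances are comparable only within 1 CXC gene.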

How the data were processed

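RNA-seq of 12 RAW264.7 libraries was used as gene FPKM, a table deposited by the authors. The libraries kept strand, per the labels' protocols. HISAT2, StringTie and GRCm38 are named in the submitters' processing notes. Not given in the sources used here are the annotation release, the strand setting and how reads with several matches were counted. The files give no counts, and 3.09% to 8.89% of low values per library lay within 0.01 of a whole number of the commonest step (2% by chance), so depth is known only roughly and no counting interval is given.

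The 13078 genes that reached an FPKM of 1 in 3 or more libraries were tested. The model, in limma 3.58.1 (R 4.3.3), took log2(FPKM + 1) of all 12 libraries, gave each group its mean and used an intensity trend (8 residual degrees of freedom). Adding 1 understates the fold change of low genes. Tests were 2-sided and Benjamini-Hochberg adjusted across all tested genes. Coordinates came from GENCODE M21, where 53620 of 53801 gene IDs were found, and promoters from RefSeq. Python 3.11.15 with scipy 1.17.1 (permutation), Biopython 1.88 (alignment) and matplotlib 3.10.9 was used.

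The CXC genes and the gene lists were chosen with earlier results of these data known. Of a list, called genes were named, up to the 4 with the smallest p, or else the 2 with the smallest p, and for likeness the 3 closest genes. Alternatives changed the pseudocount, the filter, the scaling, a replicate block, the libraries fitted and the trend, or left out each library in turn.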

Additional observations from a re-analysis of the deposited data

How the results depend on the processing

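Cxcl10 and Cxcl16 kept their LPS calls in both kinds of cells under every alternative run; Cxcl2, Cxcl3 and Cxcl11 passed the filter only through the LPS libraries and support no such statement. None of the 5 tested CXC genes was called without LPS or in the interaction under any alternative. Cxcl3, listed at 0 in every untreated library, could not be called without LPS, and its interaction repeats its difference after LPS. Cxcl11 was near 0 without LPS, so its absence there says little. After LPS, the count of CXC genes called between silenced and control cells was 1, but 0 with a pseudocount of 0.1 and 0 with only the groups compared, and 0 to 1 when each library was left out in turn. Cxcl2 then ranged from 0.99 to 1.21 (adjusted p = 0.00641 to 0.0998). Its call remained with no filter, the stricter filter, all 3 other scalings, no intensity trend and without both untreated replicate 3 libraries (1.07, adjusted p = 0.0158).

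Differences near 0 changed sign. Cxcl16 after LPS was -0.026 with a common FPKM sum, and -0.04, -0.0052 and -0.048 without silenced LPS replicate 3, control LPS replicate 1 or control LPS replicate 2 (-0.048 to 0.10 over all libraries left out). Without LPS, Cxcl2 was 0.13 without silenced replicate 2 (-0.23 to 0.13), and Cxcl10 was 0.016 without silenced replicate 3 and 0.0040 or 0.0043 without control replicate 1 or 2 (-0.73 to 0.016). A pseudocount of 0.1 moved the LPS change of Cxcl11 to 5.27 in silenced and 4.46 in control cells, and the difference of Cxcl3 after LPS to 0.61.

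Trappc4 without LPS was called under quantile normalization (-1.12, adjusted p = 0.0355), and ranged from -1.20 to -0.90 when each library was left out (called in 1 of 12, without control LPS replicate 3, adjusted p = 0.0403). After LPS it ranged from -0.94 to -0.60 and was called in none.

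Over all genes, the count called without LPS was 28, against 48 with the replicate block, 6 with only the groups compared and 10 with no trend (3 to 41 leaving out each library). After LPS it was 94, against 38 with quantile normalization, 50 with no trend, 42 without both untreated replicate 3 libraries and 0 with only the groups compared (limma; 1622 at an unadjusted p under 0.05), and 10 to 91 leaving out each library. Of the calls after LPS, 43.6% were higher, against 60.7% with median-ratio scaling and 73.7% with quantile normalization. The interaction count was 8 (62.5% higher), against 6 with median-ratio scaling (83.3% higher), 5 with a pseudocount of 0.1, 4 with no trend, 3 without both untreated replicate 3 libraries and 0 to 20 leaving out each library. The causes were not tested.

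Same-numbered libraries deviated together only weakly (correlation -0.03 to 0.19 over 18 pairs of libraries, 3 of them over 0.1, 11 best with their own number), so the numbers were not taken as pairs. With the replicate block, 0 CXC genes were called without LPS and 1 after LPS, Cxcl2 (adjusted p = 0.0148), and 0 in the interaction.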
